A study of Mus musculus with 4 samples.

Results

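The respiratory chain and ATP synthase genes of the nuclear genome were followed in LTi cells (lymphoid tissue inducer cells, innate lymphocytes of the gut wall) with and without floxed Gata3. The members were taken by symbol: every gene whose symbol begins with Nduf, Uqcr, Atp5 or Cox with a digit from 4 to 8, plus Sdha, Sdhb, Sdhc and Sdhd, and without Cox6a2. The rule took 94 of the 27179 genes in the table. Of these, 82 are subunits of complexes I to V or paralogs of such subunits, with 36 in complex I, 4 in complex II, 8 in complex III, 19 in complex IV and 15 in complex V. The other members are 9 assembly factors of complex I, 2 pseudogenes and Atp5s, a coupling factor named for complex V. Of the 94, 88 had enough reads to be tested and 4 were listed at 0 in all libraries.

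Complexes I and II pass electrons from NADH and succinate to coenzyme Q, complex III passes them on to cytochrome c, and complex IV hands them to oxygen. Complexes I, III and IV pump protons across the inner mitochondrial membrane, and complex V, the ATP synthase, uses their return to make ATP. Most subunits are encoded in the nucleus, a small set in mitochondrial DNA, and those of complex II in the nucleus alone. Several nuclear subunits exist as paralogs that are used in particular tissues, such as the muscle forms of complex IV. NRF1, GABPA (an ETS factor) and YY1 are textbook regulators of promoters of this family.

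Gata3-KO libraries came from Gata3fl/fl mice that carry VavCre, a transgene that expresses Cre in the blood lineage so that the floxed allele can be cut out there, and Ctrl libraries came from Gata3+/+ mice. All were C57BL/6, and the labels give neither ages nor a Cre-bearing control. Each genotype has 2 Smart-seq2 libraries, a full-length cDNA method. Cells were sorted from the lamina propria of the small intestine as live and lineage-negative, positive for CD127 and CCR6, and negative for KLRG1, NK1.1 and NKp46. Nothing in the labels says that the replicates were separate animals, so p-values measure only the spread between these libraries, which may be technical.

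Promoter sequences were looked up for the tested subunits, since the genes of all complexes are known to share promoter elements. RefSeq (GRCm38.p6) gave an entry for 64 of the 76 tested subunits, each a window of 300 bases from 250 before to 50 after a transcription start. Letters were searched on both strands. The NRF1 palindrome with 1 free base was in the promoters of 17 of 64 subunits (26.6%), in 10.9% of tested genes and in 5.19% of all 27025 genes with an entry. The exact NRF1 palindrome, which is also counted under the motif with the free base, was in 7.81% of subunits, 2.20% of tested genes and 1.07% of all genes. The YY1 motif was in 6.25%, 1.72% and 0.755% of the same sets, and the ETS letters CCGGAAG in 23.4%, 19.3% and 9.93%. By complex, the NRF1 palindrome with the free base was in 7 of 32 promoters for complex I, 2 of 3 for complex II, 1 of 4 for complex III, 1 of 11 for complex IV and 6 of 14 for complex V. It was in 3 of the 10 promoters of subunits called higher in Gata3-KO (below 0.05 after adjustment) and in 14 of 54 of the other tested subunits. A match describes letters in a window and not a bound site.

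The promoters of those 3 called subunits are shown with the match in capitals, beside that of Ndufv2, the called subunit with the largest log2 difference, in whose window none of the motifs was found. All lie on the minus strand and are written 5′ to 3′. The windows are chr2:10080383-10080682 for Atp5c1 (1 of its 2 windows), chr16:91931581-91931880 for Atp5o, chr2:36049289-36049588 for Ndufa8 and chr17:66101510-66101809 for Ndufv2. The match reads GCGCACGCGC on the shown strand of Atp5c1. In Atp5o and Ndufa8 it lies on the opposite strand.
Atp5c1: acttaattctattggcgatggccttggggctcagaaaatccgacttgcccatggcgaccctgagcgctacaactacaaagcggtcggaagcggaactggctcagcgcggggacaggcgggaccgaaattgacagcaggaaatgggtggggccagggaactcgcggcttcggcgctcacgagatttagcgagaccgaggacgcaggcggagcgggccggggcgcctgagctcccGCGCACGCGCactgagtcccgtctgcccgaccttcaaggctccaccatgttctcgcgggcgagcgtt
Atp5o: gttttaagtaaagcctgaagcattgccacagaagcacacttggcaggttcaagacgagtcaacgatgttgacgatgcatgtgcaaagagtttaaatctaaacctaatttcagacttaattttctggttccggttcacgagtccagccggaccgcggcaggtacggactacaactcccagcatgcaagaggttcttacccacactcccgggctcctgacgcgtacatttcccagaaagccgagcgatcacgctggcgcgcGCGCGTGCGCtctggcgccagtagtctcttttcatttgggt
Ndufa8: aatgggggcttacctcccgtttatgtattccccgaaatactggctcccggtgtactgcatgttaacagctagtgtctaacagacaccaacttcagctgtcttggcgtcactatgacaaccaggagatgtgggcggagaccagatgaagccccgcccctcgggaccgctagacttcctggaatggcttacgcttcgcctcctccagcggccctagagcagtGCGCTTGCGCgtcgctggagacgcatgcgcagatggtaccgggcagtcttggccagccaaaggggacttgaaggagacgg
Ndufv2: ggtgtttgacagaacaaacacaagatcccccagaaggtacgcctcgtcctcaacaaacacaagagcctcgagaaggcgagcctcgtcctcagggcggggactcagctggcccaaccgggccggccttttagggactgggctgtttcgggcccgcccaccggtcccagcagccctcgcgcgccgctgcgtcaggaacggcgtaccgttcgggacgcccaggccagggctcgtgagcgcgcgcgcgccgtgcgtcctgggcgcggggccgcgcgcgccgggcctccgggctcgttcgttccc

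Values are RPKM, reads scaled to the length of the gene and to the total of the library, and log2 differences are Gata3-KO minus Ctrl on log2(RPKM + 1). The libraries held 24315878 and 23973995 reads in Gata3-KO, against 14294708 and 12670034 in Ctrl. Slc29a3, Rn45s and Slc39a6 together took 20.7% and 19.4% of the reads in Gata3-KO, against 30.9% and 41.9% in Ctrl, and scaling to the library total lowers all other genes where these are high. On the deposited scale the median tested gene lay at 0.43, so results are also given after median-ratio scaling, a rescaling of the libraries to their median gene, where it lay at 0.04. Gata3 itself stood at 34.5 and 23.3 RPKM in Gata3-KO, against 84.3 and 50.7 RPKM in Ctrl (log2 difference -1.18, SE 0.36, limma adjusted p = 0.0897), and the table has 1 value for the whole gene, so exons that Cre leaves in place are counted too. Of the LTi and ILC3 markers, all 10 were detected in every library. The libraries also held transcripts listed as markers of other cells. B and plasma cell markers summed to 4319 and 2482 RPKM in Gata3-KO, against 438 and 632 RPKM in Ctrl. T cell markers summed to 682 and 363 against 102 and 89.7 RPKM in the same order. Epithelial markers summed to 1268 and 1803 against 308 and 191 RPKM. Single genes weigh much in these sums. Xbp1, on the B and plasma cell list, had 479 and 465 RPKM in Gata3-KO, against 236 and 222 RPKM in Ctrl. Lat, on the T cell list, had 144 and 250 against 72.4 and 48.3 RPKM. Trac was high in Gata3-KO replicate 1 alone (76.1 and 11.4 against 17.7 and 19.2 RPKM). So were Cd3d (62.0 and 2.35 against 2.58 and 3.86 RPKM) and Cd8a (34.3 and 1.27 against 0.112 and 0.630 RPKM). Cd247 was high in both (9.51 and 10.3 against 0.760 and 0.823 RPKM). On the T cell list 7 of 10 genes were higher in both Gata3-KO libraries than in both Ctrl libraries, beside 53.9% of all tested genes. In such bulk samples, fewer cells of a type and less RNA per cell cannot be told apart.

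Respiratory chain subunits were mostly at a higher level in the Gata3-KO libraries on the deposited scale, in all 5 complexes. A gene was called where limma's adjusted p, over all 14211 tested genes, was below 0.05. By that rule 12 of the 88 tested members (13.6%) rose in Gata3-KO and 0 fell, beside 8.35% and 0.69% of all tested genes. The 12 are 7 of 36 tested subunits of complex I, 2 of 7 of complex III and 3 of 15 of complex V. Of the 4 tested subunits of complex II and the 14 of complex IV 0 passed. Both Gata3-KO libraries lay above both Ctrl libraries for 79 of the 88 members and below them for 0, beside 53.9% and 7.59% of all tested genes. The median log2 difference of the members was 0.84. In limma 56 members (63.6%) had an unadjusted p under 0.05, beside 30.6% of all tested genes in either direction.

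Much of that height was shared with the rest of the transcriptome. After median-ratio scaling 0 of the 88 members were called by limma (16 had an unadjusted p under 0.05, and the lowest adjusted p was 0.0791 for Ndufv2). Those 16 are 18.2% of the members, beside 22.7% of all tested genes with an unadjusted p under 0.05 in either direction, so the share of members is no higher than the background. Of all genes, limma called 0.64% higher and 0.45% lower on that scale. The median log2 difference of the members was then 0.27. Both Gata3-KO libraries remained above both Ctrl libraries for 48 members and lay below them for 7, beside 29.7% and 25.7% of all tested genes. With any single library left out, on the deposited scale, the median log2 difference of the members ran from 0.71 to 1.01. By limma-voom on recovered reads 0 members were called. There 52 of the 88 had an unadjusted p under 0.05, beside 3988 of all 14211 tested genes.

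**Figure D1:**
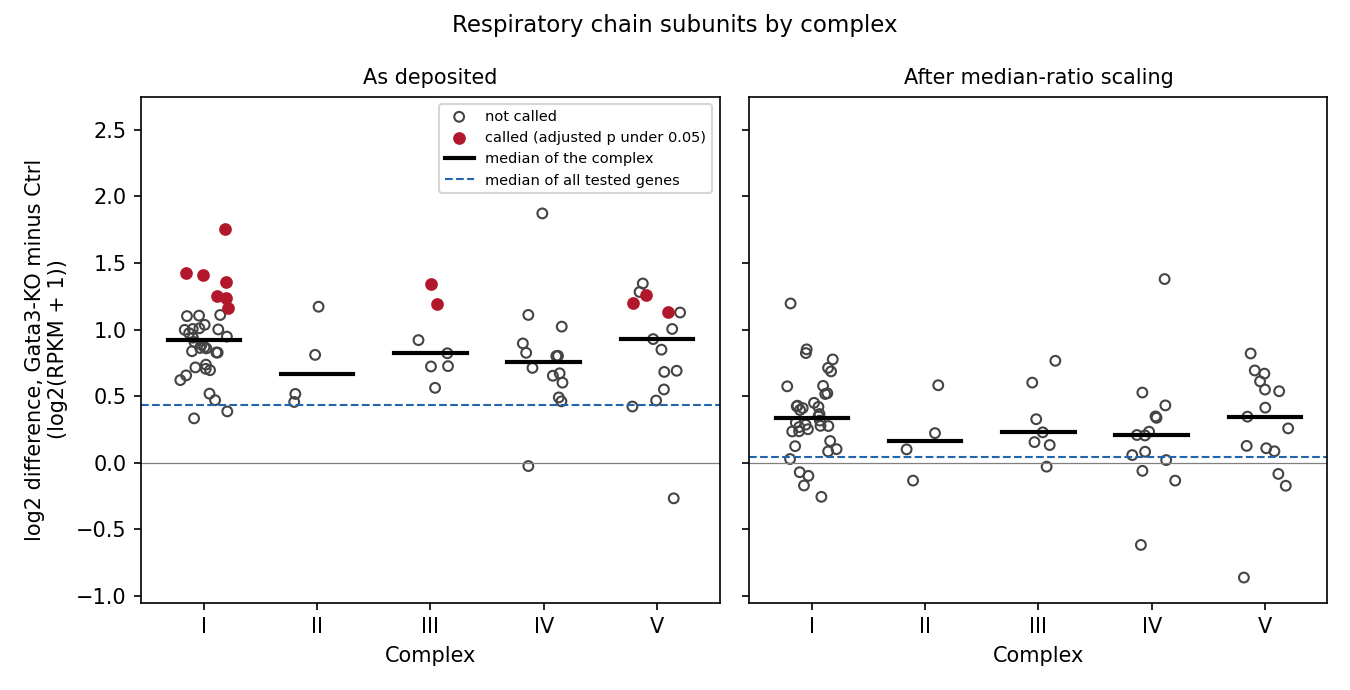
Log2 difference, Gata3-KO minus Ctrl, of each tested subunit by complex, on the deposited scale (left) and after median-ratio scaling (right). Each circle is a subunit, filled where called, thick lines are medians of the complex and the dashed line is the median of all tested genes. On the left all 5 complex medians, from 0.66 to 0.93, lie above the dashed line at 0.43, and on the right they lie between 0.16 and 0.35 above one at 0.04.

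Complex I, the NADH dehydrogenase, held 7 of the 12 called subunits and 36 of the 76 tested ones. Its called share was 19.4%, beside 28.6% for complex III, 20% for complex V and 8.35% of all tested genes. Of its 36 genes, all tested, 7 rose in Gata3-KO on the deposited scale, the median log2 difference was 0.92, and both Gata3-KO libraries lay above both Ctrl libraries for 35. After median-ratio scaling the median was 0.33, the same separation held for 22, and the opposite held for 1, Ndufb11. Over all tested genes the separation held for 53.9% as deposited. After that scaling it held for 29.7%, and the opposite for 25.7%. The 7 core subunits, which carry the flavin and the iron-sulfur clusters, had a median of 0.83 before and 0.24 after that scaling. The 29 accessory subunits, which surround the core, had medians of 0.94 and 0.35.

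Ndufv2 (Entrez 72900, chr17:66078795-66101559), an iron-sulfur subunit of the NADH-oxidising module, had the largest log2 difference among the called members. Its level was 29.8 and 35.1 RPKM in Gata3-KO, against 8.55 and 9.22 RPKM in Ctrl. Each Gata3-KO library lay more than 3-fold above each Ctrl library, a log2 difference of 1.76 (SE 0.27, limma adjusted p = 0.0230). The level is low for the complex and rests on 267 and 310 recovered reads in Gata3-KO and 45 and 43 in Ctrl. As a share of the summed RPKM of complex I, which scaling between libraries does not move, Ndufv2 took 1.02% and 1.12% in Gata3-KO, against 0.460% and 0.644% in Ctrl.

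The other core subunits did not pass the test. Ndufs3 stood at 34.2 and 40.5 RPKM in Gata3-KO and 20.8 and 15.8 RPKM in Ctrl, but 39.7% of the 50-base windows of its transcripts also occur in other genes, and the counting of such reads is not given in the sources used here. Ndufs7 and Ndufs8, iron-sulfur subunits, also kept their groups apart. Ndufs7 had 177 and 182 RPKM in Gata3-KO and 113 and 108 RPKM in Ctrl. Ndufs8 had 117 and 144 RPKM in Gata3-KO and 68.1 and 77.4 RPKM in Ctrl.

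Ndufv1 and Ndufs1, the partners of Ndufv2 in the NADH-oxidising module, stood lower in the order of differences. Ndufv1, which binds NADH and the flavin, had 85.3 and 115 RPKM in Gata3-KO and 79.6 and 59.3 RPKM in Ctrl (log2 difference 0.52, limma adjusted p = 0.296). Ndufs1 had 12.4 and 19.6 RPKM in Gata3-KO and 12.5 and 11.1 RPKM in Ctrl (0.39, adjusted p = 0.460), so that Gata3-KO replicate 1 and Ctrl replicate 1 were level. After median-ratio scaling both differences turned negative, at -0.07 and -0.17. The ratio of Ndufv2 to Ndufv1 within a library, a pair chosen after its values were seen, was 0.350 and 0.306 in Gata3-KO, against 0.108 and 0.155 in Ctrl.

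The 6 called accessory subunits had log2 differences from 1.16 to 1.42. Ndufb3 (Entrez 66495, chr1:58586397-58595964), of the membrane arm, had 46.1 and 40.7 RPKM in Gata3-KO, against 14.9 and 16.2 RPKM in Ctrl (1.42, SE 0.26, limma adjusted p = 0.0318). Ndufb9 (Entrez 66218, chr15:58933801-58939516), also of the membrane arm, had 104 and 122 RPKM in Gata3-KO, against 42.8 and 40.9 RPKM in Ctrl (1.41, SE 0.26, adjusted p = 0.0319). In both genes the libraries of a genotype lay close together and the genotypes far apart. Ndufa10 (Entrez 67273, chr1:92439486-92473825), whose fold resembles nucleoside kinases, had 60.1 and 68.1 RPKM in Gata3-KO, against 24.3 and 24.4 RPKM in Ctrl (1.36, SE 0.26, adjusted p = 0.0334). Ndufa8 (Entrez 68375, chr2:36036324-36049338), whose promoter is printed above, had 14.1 and 15.9 RPKM in Gata3-KO, against 5.68 and 5.77 RPKM in Ctrl (1.25, SE 0.28, adjusted p = 0.0475). The Ctrl libraries were nearly equal in both of these genes. Ndufa12 (Entrez 66414, chr10:94199035-94221440), of the matrix arm, had 22.8 and 19.6 RPKM in Gata3-KO, against 9.23 and 7.60 RPKM in Ctrl (1.24, SE 0.28, adjusted p = 0.0488). Ndufc1 (Entrez 66377, chr3:51405479-51408955), of the membrane arm, had 69.1 and 68.4 RPKM in Gata3-KO, against 32.8 and 27.8 RPKM in Ctrl (1.16, SE 0.26, adjusted p = 0.0461). Ndufa12 and Ndufb9 share 26.2% and 23.4% of their 50-base windows with other genes, so their levels are less certain. The accessory subunit with the smallest difference was Ndufb11, with 84.6 and 85.8 RPKM in Gata3-KO and 81.7 and 55.6 RPKM in Ctrl (0.33, adjusted p = 0.485, and -0.26 after median-ratio scaling).

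**Figure D2:**
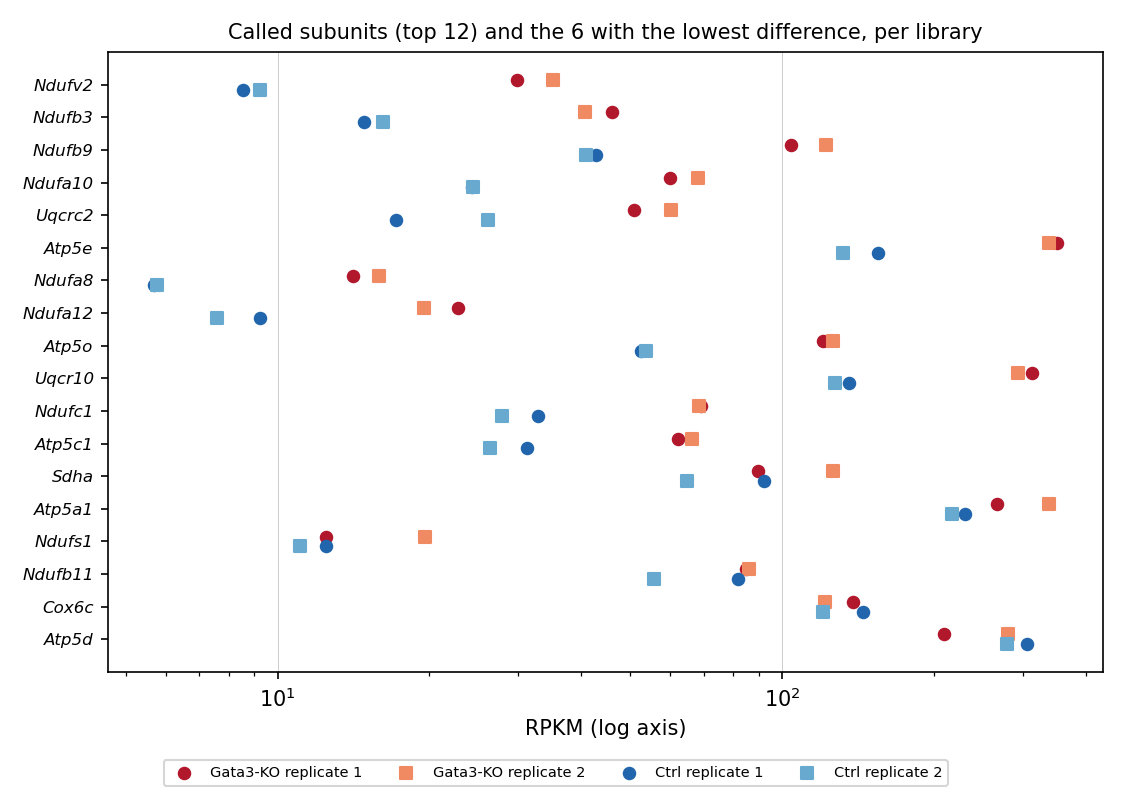
RPKM of each library on a log axis for the 12 called subunits, ordered by log2 difference, and the 6 tested subunits with the smallest differences; red and orange are Gata3-KO replicates 1 and 2, dark and light blue Ctrl replicates 1 and 2. In all 12 called subunits both Gata3-KO libraries lie to the right of both Ctrl libraries, as for Ndufv2 at 29.8 and 35.1 against 8.55 and 9.22, while the groups overlap for Sdha, Ndufs1, Cox6c and Atp5d.

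Complex II, succinate dehydrogenase, which is also an enzyme of the TCA cycle, had no called subunit among its 4. In limma 2 had an unadjusted p under 0.05, beside 30.6% of all tested genes. The median log2 difference was 0.66, and 0.16 after median-ratio scaling. Sdhb, the iron-sulfur subunit, stood at 122 and 142 RPKM in Gata3-KO, against 77.8 and 42.8 RPKM in Ctrl (1.17, limma adjusted p = 0.0883). Its catalytic partner Sdha, which binds succinate and the flavin, stood at 89.6 and 126 RPKM in Gata3-KO and 92.0 and 64.7 RPKM in Ctrl (0.46, adjusted p = 0.380, and -0.13 after median-ratio scaling). The groups were apart for Sdhb and overlapped for Sdha. Within a library the ratio of Sdhb to Sdha, a pair chosen after its values were seen, was 1.36 and 1.12 in Gata3-KO, against 0.846 and 0.662 in Ctrl. The membrane anchor Sdhc had 79.8 and 88.6 RPKM in Gata3-KO and 52.2 and 43.2 RPKM in Ctrl. Its partner Sdhd was listed far lower, at 3.39 and 3.02 RPKM in Gata3-KO and 2.67 and 1.35 RPKM in Ctrl. Neither anchor passed the test (adjusted p = 0.104 and 0.382).

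In complex III, which takes electrons from coenzyme Q to cytochrome c, 2 of the 7 tested subunits rose on the deposited scale. The median log2 difference was 0.82, and 0.23 after median-ratio scaling. Both Gata3-KO libraries lay above both Ctrl libraries for all 7, and for 4 after that scaling, beside 53.9% and 29.7% of all tested genes. Uqcrc2 (Entrez 67003, chr7:120635189-120659523), a core protein on the matrix side, had 50.9 and 60.2 RPKM in Gata3-KO, against 17.1 and 26.1 RPKM in Ctrl (1.34, SE 0.31, limma adjusted p = 0.0483). Uqcr10 (Entrez 66152, chr11:4701968-4704344), a small accessory subunit, had 312 and 293 RPKM in Gata3-KO, against 136 and 127 RPKM in Ctrl (1.20, SE 0.27, adjusted p = 0.0470). The Ctrl libraries of Uqcrc2 lay far apart for their level, those of Uqcr10 close together. Uqcrc2 shares 24.2% of its 50-base windows with another gene, so its level is less certain.

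The other subunits of complex III had smaller differences. Uqcrc1, the partner of Uqcrc2, had 208 and 274 RPKM in Gata3-KO and 141 and 128 RPKM in Ctrl (0.82, adjusted p = 0.121). Uqcrfs1, the Rieske iron-sulfur protein, had 101 and 106 RPKM in Gata3-KO and 58.4 and 66.5 RPKM in Ctrl (0.72, adjusted p = 0.124). Uqcrh, the hinge protein, had the smallest difference, with 149 and 141 RPKM in Gata3-KO and 114 and 83.7 RPKM in Ctrl (0.56, adjusted p = 0.239, and -0.03 after median-ratio scaling). Uqcr11 was listed at 0 in all 4 libraries, and since the annotation behind the counts is unknown here, that 0 cannot be read as absence of the transcript. Cyc1, the cytochrome subunit that the symbol rule leaves out, had 187 and 245 RPKM in Gata3-KO and 108 and 118 RPKM in Ctrl (0.92, adjusted p = 0.0950).

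Complex IV, cytochrome c oxidase, had no called subunit among 14 tested (limma, 6 with an unadjusted p under 0.05, beside 30.6% of all tested genes). The median log2 difference was 0.76, and 0.21 after median-ratio scaling. Both Gata3-KO libraries lay above both Ctrl libraries for 12 of the 14, and for 6 after that scaling, beside 53.9% and 29.7% of all tested genes. Cox4i1, the ubiquitous form of the regulatory subunit 4, had the highest level of all members in 3 libraries, while Atp5b led in Ctrl replicate 2. Cox4i1 had levels of 614 and 643 RPKM in Gata3-KO, against 386 and 337 RPKM in Ctrl (0.80, limma adjusted p = 0.131). Cox5a had 144 and 181 RPKM in Gata3-KO and 90.1 and 91.5 RPKM in Ctrl (0.83, adjusted p = 0.106), and Cox5b had 88.5 and 103 RPKM in Gata3-KO and 69.7 and 51.0 RPKM in Ctrl (0.67, adjusted p = 0.176). These 3 subunits kept the genotypes apart on the deposited scale. Cox5a shares 32.05% of its 50-base windows with other genes, so its level is less certain. Ndufa4, named for complex I and counted here with complex IV, had 167 and 153 RPKM in Gata3-KO and 85.7 and 71.2 RPKM in Ctrl (1.02, adjusted p = 0.0651).

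Cox6c (Entrez 12864, chr15:35931976-35938246), a small nuclear subunit, stood apart from the rest of complex IV. It had 138 and 121 RPKM in Gata3-KO, against 144 and 120.4 RPKM in Ctrl (-0.02, SE 0.27, limma adjusted p = 0.966). The groups overlapped fully on the deposited scale. After median-ratio scaling both Gata3-KO libraries lay below both Ctrl libraries (-0.62, adjusted p = 0.196). Its share of the summed RPKM of complex IV was 5.46% and 4.56% in Gata3-KO, against 7.95% and 8.30% in Ctrl.

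Tissue-specific paralogs were low or unlisted in both genotypes. Cox4i2, the lung form of subunit 4, had 0.283 RPKM in Gata3-KO replicate 1 and 0.109 RPKM in Ctrl replicate 2, and was listed at 0 in the others. Cox6b2, the testis form of subunit 6b, had 1.45 RPKM in Gata3-KO replicate 2, and 0.695 and 0.131 RPKM in Ctrl, and was listed at 0 in Gata3-KO replicate 1. Cox7b2, Cox8b and Cox8c were listed at 0 in every library, and so were 2 of 5 muscle markers, Myh7 and Mb. Of the other muscle markers, Ckm and Tnnt2 stood below 0.5 RPKM in every library and were not tested, while Acta1, skeletal muscle actin, rose, with 73.5 and 60.05 RPKM in Gata3-KO, against 25.8 and 30.7 RPKM in Ctrl (1.21, limma adjusted p = 0.0467, and adjusted p = 0.252 after median-ratio scaling). Cox4i1 made up at least 99.95% of the summed Cox4 level in each library, and Cox6b1 at least 99.56% of the Cox6b level. Ndufa4l2, a paralog of Ndufa4 known as a hypoxia-responsive gene, had 2.39 and 2.56 RPKM in Gata3-KO and 0.945 and 1.31 RPKM in Ctrl (0.71, limma adjusted p = 0.190).

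Cox7a1, the heart and skeletal muscle form of subunit 7a, was the exception. It had 12.1 and 23.7 RPKM in Gata3-KO, against 9.56 and 1.29 RPKM in Ctrl. Its log2 difference of 1.87 was the largest of all members, but with an SE of 0.78 it did not pass (limma adjusted p = 0.180), and Ctrl replicate 2 rested on 3 recovered reads. It took 15.8% and 28.0% of the summed Cox7a1, Cox7a2 and Cox7a2l level in Gata3-KO, against 16.5% and 3.54% in Ctrl. After median-ratio scaling the groups overlapped.

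In complex V, the ATP synthase, 3 of 15 subunits rose on the deposited scale, the median log2 difference was 0.93, and it was 0.35 after median-ratio scaling. Both Gata3-KO libraries lay above both Ctrl libraries for 13 of the 15, and for 10 after that scaling, when they lay below for 2. The shares over all tested genes were 53.9% and 29.7% above, and 25.7% below after that scaling. Atp5e (Entrez 67126, chr2:174461075-174464101), the epsilon subunit of the central stalk, had 351 and 338 RPKM in Gata3-KO, against 155 and 132 RPKM in Ctrl (1.26, SE 0.28, limma adjusted p = 0.0454). Atp5c1 (Entrez 11949, chr2:10056030-10080510), the gamma subunit that forms the shaft of that stalk, had 62.1 and 66.1 RPKM in Gata3-KO, against 31.2 and 26.4 RPKM in Ctrl (1.13, SE 0.26, adjusted p = 0.0490). Atp5o (Entrez 28080, chr16:91925223-91931630), the subunit at the top of the peripheral stalk, had 121 and 126 RPKM in Gata3-KO, against 52.5 and 53.8 RPKM in Ctrl (1.20, SE 0.25, adjusted p = 0.0409). All 3 had groups well apart, and their levels differed less between replicates than between genotypes. Of the 50-base windows of Atp5o, 47.6% also occur in other genes, so its level is uncertain.

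Atp5d (Entrez 66043, chr10:80138698-80145828), the delta subunit, which sits with gamma and epsilon in the central stalk, went the other way in its values. It had 209.7 and 279.9 RPKM in Gata3-KO, against 306 and 279 RPKM in Ctrl (-0.27, SE 0.30, limma adjusted p = 0.588). Gata3-KO replicate 2 and Ctrl replicate 2 were level. After median-ratio scaling it had 179 and 217 RPKM in Gata3-KO, against 355 and 362 RPKM in Ctrl, the most negative log2 difference of all members (-0.86, SE 0.22, adjusted p = 0.113). Its share of the summed RPKM of complex V was 9.48% and 11.4% in Gata3-KO, against 20.4% and 20.3% in Ctrl. The ratio of Atp5e to Atp5d within a library, a pair chosen after its values were seen, was 1.67 and 1.21 in Gata3-KO, against 0.507 and 0.474 in Ctrl. That of Atp5c1 to Atp5d was 0.296 and 0.236 in Gata3-KO, against 0.102 and 0.0947 in Ctrl. These ratios do not depend on scaling between libraries, and no test was made on them.

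The catalytic head of complex V did not pass the test. Atp5b, the catalytic beta subunit, had 505 and 598 RPKM in Gata3-KO, against 328 and 356 RPKM in Ctrl (0.68, limma adjusted p = 0.180). Atp5a1, the alpha subunit, had 267 and 338 RPKM in Gata3-KO, against 230.4 and 217 RPKM in Ctrl (0.42, adjusted p = 0.370). On the deposited scale both kept the genotypes apart, and after median-ratio scaling the Atp5a1 difference turned negative (-0.17).

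The c-ring of ATP synthase is built from a protein that 3 genes encode with the same mature sequence. Atp5g3 had 139 and 127 RPKM in Gata3-KO, against 66.3 and 65.3 RPKM in Ctrl (1.00, limma adjusted p = 0.0608). Atp5g1 had 14.3 and 13.6 RPKM in Gata3-KO, against 6.04 and 3.91 RPKM in Ctrl (1.35, adjusted p = 0.0523), and Atp5g2 had 3.18 and 3.55 RPKM in Gata3-KO, against 2.59 and 1.46 RPKM in Ctrl (0.55, adjusted p = 0.337). Atp5g3 supplied 88.8% and 88.1% of the summed c-ring level in Gata3-KO, against 88.5% and 92.4% in Ctrl, so it led in every library. Atp5g2 shares 38.35% of its 50-base windows with other genes, so its level is less certain. The 4 genes of the peripheral stalk had both Gata3-KO libraries above both Ctrl libraries on either scale, with medians of 0.89 and 0.30. So had 53.9% of all tested genes as deposited and 29.7% after median-ratio scaling. Of their 50-base windows, 37.55% in Atp5f1, 36.86% in Atp5h and 47.62% in Atp5o also occur in other genes, which makes these levels uncertain.

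Summed over its genes, each complex stood higher in both Gata3-KO libraries than in both Ctrl libraries on the deposited scale. Complex I summed to 3042 ± 152 RPKM in Gata3-KO and 1645 ± 301 RPKM in Ctrl (SD, n = 2 each), a ratio of 1.85. Complex II summed to 327 ± 45.6 RPKM in Gata3-KO and 188 ± 51.4 RPKM in Ctrl, a ratio of 1.73. Complex III summed to 1143 ± 37.0 RPKM in Gata3-KO and 609 ± 58.5 RPKM in Ctrl, a ratio of 1.88. These are levels per length, so a few abundant genes weigh most. Complex IV summed to 2599 ± 89.2 RPKM in Gata3-KO and 1633 ± 258 RPKM in Ctrl, a ratio of 1.59. Complex V summed to 2335 ± 173 RPKM in Gata3-KO and 1435 ± 89.8 RPKM in Ctrl, a ratio of 1.63. After median-ratio scaling the ratios were 1.23 for complex I, 1.15 for complex II, 1.24 for complex III, 1.06 for complex IV and 1.08 for complex V, and the libraries of the genotypes overlapped for complexes II and IV. Complex I had the highest sum in 3 libraries, followed by IV, V, III and II, and in Ctrl replicate 2 complex IV (1450.2 RPKM) stood just above complex I (1432 RPKM).

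**Figure D3:**
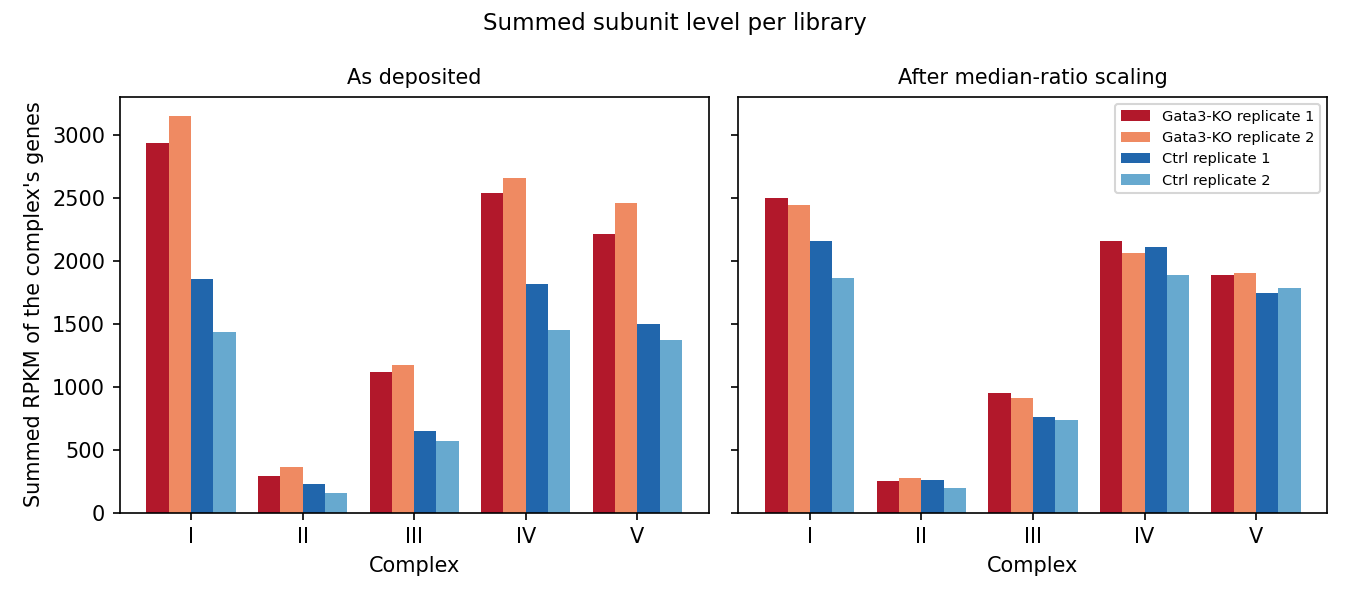
Summed RPKM of each complex per library, as deposited (left) and after median-ratio scaling (right); red and orange bars are Gata3-KO replicates 1 and 2, dark and light blue bars Ctrl replicates 1 and 2. On the left each red and orange bar stands above the blue bars, as for complex I at 2935 and 3149 against 1858 and 1432 RPKM, and on the right the difference is smaller in every complex.

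The 9 assembly factors of complex I among the members were called in no case (limma, 5 with an unadjusted p under 0.05, beside 30.6% of all tested genes). Their median log2 difference was 0.71, and 0.13 after median-ratio scaling. Their log2 differences ran from -0.0026 for Ndufaf2 to 1.01 for Ndufaf6. The pseudogenes Atp5c1-ps and Uqcrh-ps1 were listed too. Atp5c1-ps had 7.80 and 9.30 RPKM in Gata3-KO and 3.67 and 2.63 RPKM in Ctrl (1.21, adjusted p = 0.0675). Reads of a parent gene and its processed copy can be hard to tell apart, so these levels are uncertain. Atp5s had 2.22 and 2.36 RPKM in Gata3-KO and 2.50 and 0.957 RPKM in Ctrl.

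Subunits encoded in mitochondrial DNA are no members but are built into the same complexes. All 13 were listed, 11 were tested and none was called by limma. An unadjusted p under 0.05 was found for 6, and for 0 after median-ratio scaling, beside 30.6% and 22.7% of all tested genes. They summed to 1992 and 4151 RPKM in Gata3-KO, against 1715 and 723 RPKM in Ctrl. Gata3-KO replicate 2 was highest and Ctrl replicate 2 lowest for nearly all of them, with the remaining libraries close together. mt-Cytb of complex III led, with 823 and 1841 RPKM in Gata3-KO and 792 and 280.0 RPKM in Ctrl (1.38, adjusted p = 0.198). mt-Nd1 of complex I had 467 and 937 RPKM in Gata3-KO and 342 and 152 RPKM in Ctrl (1.53, adjusted p = 0.113). mt-Cox2, also a catalytic subunit of complex IV, was listed at only 1.74 and 3.90 RPKM in Gata3-KO and 1.02 and 0.346 RPKM in Ctrl, far below mt-Cox1 at 370 and 761 RPKM in Gata3-KO and 305 and 162 RPKM in Ctrl. mt-Cox3 and mt-Atp6 were listed low too, at most at 5.11 and 3.25 RPKM. With the annotation unknown, these low listings cannot be read as low transcript levels, and the sums carry the same limit. The ratio of the summed nuclear subunits to the mitochondrially encoded ones was 4.57 and 2.36 in Gata3-KO, against 3.53 and 6.88 in Ctrl, so the genotypes overlapped.

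**Figure D4:**
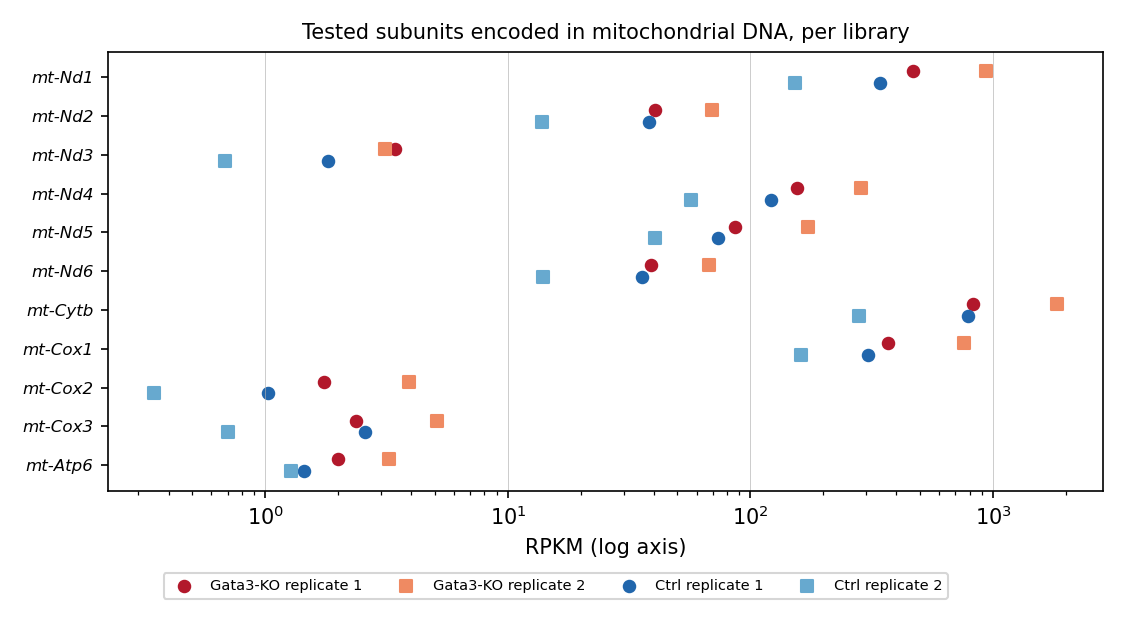
RPKM of each library on a log axis for the 11 tested subunits encoded in mitochondrial DNA; red and orange are Gata3-KO replicates 1 and 2, dark and light blue Ctrl replicates 1 and 2. Gata3-KO replicate 2 lies at or near the right and Ctrl replicate 2 at the left in each gene, as for mt-Cytb at 1841 and 280.0 RPKM.

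Genes of mitochondrial respiration, mostly beyond the subunits, were counted from lists of textbook members, with Cyc1 of complex III among the electron carriers. No gene of these lists was called lower on the deposited scale, beside only 0.69% of all tested genes. Some uncalled ones had negative log2 differences, such as Cycs at -0.20 and Coq10b at -0.18. Cycs was listed at only 0.242 and 0.586 RPKM in Gata3-KO and 0.595 and 0.619 RPKM in Ctrl. With the annotation unknown, that low listing cannot be read as a low transcript level. The list for complex I assembly includes the 9 assembly factors already described. The counts stand beside 8.35% of all tested genes called higher, and several lists lie near that share. On the assembly lists, 2 of 18 tested for complex I rose on the deposited scale (Ecsit at 1.63 and Dmac1 at 1.69). For complexes II, III and V 3 of 14 rose (Uqcc2 at 1.32, Bcs1l at 2.21 and Atpif1 at 1.80). Atpif1 was kept on that list although it is no assembly factor. For complex IV 2 of 21 rose (Cox15 at 1.70 and Coa3 at 1.43). Bcs1l, which inserts the Rieske protein into complex III, had 5.35 and 6.04 RPKM in Gata3-KO, against 0.421 and 0.475 RPKM in Ctrl (SE 0.32, limma adjusted p = 0.0209). Atpif1, the inhibitor of ATP synthase, had 222 and 278 RPKM in Gata3-KO, against 79.3 and 62.7 RPKM in Ctrl (SE 0.29, adjusted p = 0.0248). In both genes every Gata3-KO library lay far above every Ctrl library.

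Of the TCA cycle and pyruvate dehydrogenase genes, which supply NADH and succinate, 4 of 27 rose: Cs (citrate synthase, 1.28), Idh2 (1.69), Suclg1 (1.48) and Pdk3 (1.53), a kinase that inhibits pyruvate dehydrogenase. Of 18 genes of coenzyme Q, cytochrome c and other electron carriers 0 were called (5 with an unadjusted p under 0.05), and of 9 carriers and channels for nucleotides and phosphate 0 (7 unadjusted). The unadjusted share over all tested genes was 30.6%. Of 15 genes that express mitochondrial DNA, Tsfm, an elongation factor, rose (1.52), and Tfam, which packages and transcribes that DNA, had 8.59 and 8.91 RPKM in Gata3-KO and 3.87 and 3.0 RPKM in Ctrl (1.14, limma adjusted p = 0.0690). Of 13 regulators of mitochondrial biogenesis, Esrra (1.56) and Myc (2.90) rose. Myc had 67.3 and 80.2 RPKM in Gata3-KO, against 4.67 and 16.6 RPKM in Ctrl. Nrf1 had 7.19 and 10.4 RPKM in Gata3-KO and 9.36 and 7.61 RPKM in Ctrl (0.03, adjusted p = 0.957), Gabpa had a log2 difference of 0.27 and Yy1 of 0.08, none of them called. After median-ratio scaling 0 genes of these lists were called by limma, and the medians of the lists ran from -0.02 for the electron carriers to 0.43 for the nucleotide and phosphate carriers, beside 0.27 for the members.

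Among the marker lists of other cells, those of B and plasma cells, T cells and epithelium were mostly higher in Gata3-KO. On the deposited scale 9 of 10 B and plasma cell markers, 5 of 10 T cell markers and 7 of 10 epithelial markers rose in Gata3-KO, beside 8.35% of all tested genes. The median log2 differences of these lists were 3.28, 2.44 and 2.64. After median-ratio scaling those medians were 2.78, 2.02 and 2.08. Epithelial markers included Epcam at 135 and 163 RPKM in Gata3-KO, against 21.7 and 20.5 RPKM in Ctrl, and B cell markers Cd79a at 140.4 and 168 RPKM in Gata3-KO, against 6.70 and 18.0 RPKM in Ctrl. None of the listed B and plasma cell, T cell and epithelial markers was at 0 in any library. Of 7 tested myeloid markers and 9 tested stromal markers 0 were called by limma (2 and 0 with an unadjusted p under 0.05, beside 30.6% of all tested genes). Their median log2 differences were 0.92 and -0.10, and 0.48 and -0.67 after median-ratio scaling. Of the LTi and ILC3 markers 1 of 10 fell, beside 0.69% of all tested genes. It was Il22, with 129 and 287 RPKM in Gata3-KO, against 2401 and 1520 RPKM in Ctrl. Those 10 markers had a median log2 difference of -0.28, and -0.87 after median-ratio scaling. On that scale 8 lay lower in both Gata3-KO libraries than in both Ctrl libraries and 0 lay higher, beside 25.7% and 29.7% of all tested genes. The part of other cells, of the library totals and of depth in the differences of the respiratory chain genes was not tested.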

How the data were processed

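Sorted LTi cells of 2 Gata3-KO and 2 Ctrl samples were sequenced as Smart-seq2 libraries, per the labels' protocols. The submitters' processing notes name Subread, featureCounts and the mouse build mm10. Tool versions, gene annotation and treatment of reads with several positions: not given in the sources used here.

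In the table that the authors deposited, each gene has 1 value per library on a log2 scale. From the values it was worked out to be log2(RPKM + 1) with 0.0001 added, normalised to the library total alone. Differences on this scale understate the change of low genes. Whole reads were recovered as the smallest whole numbers that give a gene's values, within 0.001 reads for all 17048 genes with values in at least 2 libraries. A gene's reads may be a multiple higher, which leaves its RPKM as it is.

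The design foresaw limma on the deposited values, and a count test only if the table held counts, which it does not. So limma 3.58.1 in R 4.3.3 was fitted to the deposited values (trend and robust variance, two-sided). Benjamini-Hochberg adjustment was over all 14211 tested genes, with a threshold of 0.05. A tested gene had 0.523 CPM, which is 10 reads at the median depth, in 2 or more libraries, and 15 or more reads altogether. The median-ratio factors were 1.17 and 1.29 for Gata3-KO, against 0.860 and 0.769 for Ctrl. The fit was tested on simulated data with one mean profile for both genotypes and changes of random direction. That test does not cover a shift in library composition between genotypes as seen here. Python 3.11.15 did the rest, with figures from matplotlib 3.10.9.

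Symbols were matched without regard to case and are printed in the mouse style. Coordinates and promoters are RefSeq's on GRCm38.p6, and 50-base windows were compared among GENCODE transcripts. By rule, values of every library are given for core subunits, tissue-specific paralogs, called members, and the highest and lowest member of each complex. Ndufa4, Cox6b1, Cox7a2, Cox7a2l, Uqcr11, Ndufaf2, Ndufaf6, Atp5s, both pseudogenes and genes that are no members were named with their values in view. Values of 1 core subunit that the rule names are not reported here. The members and lists were chosen with earlier results of these data known. Alternatives changed the scaling (median-ratio, upper-quartile, TMM), the filter, the pseudocount, the test (limma-voom), the replicate block or the libraries included.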

Additional observations from a re-analysis of the deposited data

How the results depend on the processing

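The number of called members moved with almost every choice. Beside 12 as reported, 22 of 78 members were called with a filter of 5 CPM (where 1715 of 9952 genes were, 1582 of them higher), 5 with a pseudocount of 0.1 (Ndufv2, Ndufb3, Ndufb9, Ndufa10 and Atp5o) and 1 with the replicate block (Ndufv2). In limma 0 were called in each of these settings, where the count with an unadjusted p under 0.05 was 16 after median-ratio, 17 after upper-quartile and 16 after TMM scaling, 54 without a filter, 52 by limma-voom, 10 by limma-voom plus median-ratio scaling, 7 by the block plus that scaling, and 31 with library totals that leave out the 3 genes with most reads, a setting chosen after seeing the data. With any 1 of the 4 libraries left out, 0 members and 0 of all genes were called. There the lone library of a genotype is assumed to vary like the other group. The 12 called members kept a positive log2 difference in every setting, from 0.55 to 1.87. They were picked for large positive differences in these same libraries, so the kept sign is no independent support.

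Of all genes 1284 were called as reported, 155, 186 and 178 after median-ratio, upper-quartile and TMM scaling, 0 without a filter (4336 unadjusted), 269 by limma-voom, 93 by limma-voom plus median-ratio scaling, 854 with a pseudocount of 0.1, 26 by the block plus median-ratio scaling and 224 with totals that leave out the 3 genes. The replicate block alone called 1084. Same-numbered libraries did not deviate together from their group means (r = -0.02 across 14211 genes, which are not independent), so the numbers were not taken as pairs.

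The median log2 difference of complex I was 0.33, 0.36 and 0.35 after median-ratio, upper-quartile and TMM scaling, 0.59 with totals without the 3 genes and 0.73 to 1.17 with a library left out. In the same order it was 0.16, 0.19, 0.18, 0.38 and 0.44 to 0.89 for complex II, 0.23, 0.26, 0.24, 0.49 and 0.69 to 1.05 for complex III, 0.21, 0.24, 0.22, 0.47 and 0.57 to 0.86 for complex IV, and 0.35, 0.38, 0.36, 0.60 and 0.75 to 1.02 for complex V.

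After median-ratio scaling 71 of the 88 members had a positive log2 difference, against 85 as reported. Among the members named by the rule, 7 uncalled ones changed sign in some setting. After median-ratio, upper-quartile and TMM scaling, by limma-voom plus median-ratio scaling and by the block plus that scaling, the log2 difference was -0.17, -0.14, -0.16, -0.17 and -0.17 for Atp5a1, -0.26, -0.23, -0.24, -0.27 and -0.26 for Ndufb11, -0.17, -0.14, -0.16, -0.18 and -0.17 for Ndufs1, -0.071, -0.040, -0.055, -0.078 and -0.071 for Ndufv1, and -0.13, -0.10, -0.12, -0.14 and -0.13 for Sdha. For Uqcrh it was -0.030, -0.013, -0.039 and -0.030 in those settings other than upper-quartile scaling. Cox6c stood at 0.11 without Ctrl replicate 1 and 0.069 without Gata3-KO replicate 2. The cause of these changes was not tested. With 2 libraries a genotype, of unequal depth between genotypes, small differences between members cannot be resolved.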
